A study of Mus musculus with 2 samples.

Results

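Macrophages were followed in the embryonic mouse ureter through 9 genes commonly used to mark them: F13a1, Csf1r, Cd68, Mrc1, Lyve1, Adgre1, C1qa, C1qb and Cx3cr1. The genes were chosen by name: every probe that the array design assigns to 1 of 10 listed names was taken, and the older name Emr1 of Adgre1 is carried by 0 probes. This gave 16 probes for 9 genes, out of 39429 probes for 29875 gene names. The RNA came from ureters dissected from NMRI embryos at stage E14.5, in mid-gestation. Gata6cKO embryos carried Tbx18(cre/+) and Gata6(fl/fl), so that cre from the Tbx18 locus recombines the floxed alleles of Gata6, a zinc finger transcription factor gene. Control embryos were Gata6(fl/?), with at least 1 floxed allele, the other allele being unstated. All Gata6cKO RNAs and no control RNA carried cre, so the effects of cre and of the deletion cannot be told apart. Replicate 1 was a male array with Gata6cKO RNA in Cy5 and control RNA in Cy3, and replicate 2 was a female array with the dyes exchanged. Sex, array and dye orientation therefore cannot be told apart between the 2 arrays. The labels do not say whether each of the 4 RNAs came from 1 embryo or from a pool, so p-values measure only the spread between these samples.

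Macrophages of the embryo arise from blood-forming progenitors of the yolk sac and fetal liver and colonise organs as they form, where they take up dying cells and remodel tissue. They depend on the receptor encoded by Csf1r, which binds the growth factors Csf1 and Il34. Tbx18 is expressed in mesenchyme around the developing ureter, which gives rise to smooth muscle and connective tissue and is not a source of blood cells.

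Each probe was printed as 4 spots, and a processed signal below is Agilent's background-subtracted, dye-normalised intensity averaged over the spots. The log2 ratio is Gata6cKO over control after background correction and loess normalisation, so a negative value is lower in Gata6cKO, and errors after ± are moderated SEs over the 2 arrays. Between 67.2% and 68.5% of spots were well above background in the 4 RNAs and 0 were saturated. After the filter on dim probes 19801 genes were tested, and the number of arrays, 2, limits the precision. At an adjusted p under 0.05 (limma, Benjamini-Hochberg) 465 genes were lower and 436 higher in Gata6cKO, 4.55% of the genes tested. Gata6 itself had a log2 ratio of 0.85 in replicate 1 and 0.46 in replicate 2, with a mean of 0.65 ± 0.12 (moderated SE, 2 arrays, adjusted p = 0.00612), which is higher in the RNA labelled Gata6cKO. Its 1 probe lies near the 3' end of the transcript, and the labels do not say which exons are flanked by loxP sites, so this does not test the deletion and every direction below rests on the labels. All 12 ureter genes on a list of urothelial and smooth muscle markers were above background, 7 of them called lower and 0 called higher in Gata6cKO. In RNA of a whole tissue, fewer cells of a type and less RNA per cell cannot be told apart.

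All 9 genes had at least 1 probe above background, so the arrays measured transcripts of these genes in the RNA of both genotypes. Which cells the transcripts came from was not tested. F13a1 was the 1 gene of 9 that passed the test, lower in Gata6cKO, beside 2.35% of all genes called lower. The other 8 had mean log2 ratios between -0.08 and 0.31 and did not pass. Over the 9 genes the median log2 ratio was 0.07, against a median of -0.00188 over all genes tested.

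Of the probes read here, 3 that bear on F13a1 and the C1q genes are shown. The F13a1 probe below gave no signal above background in any RNA, so that gene was read from its other probe, which is not printed. The C1qa and C1qb probes report chains of the same protein from a gene cluster in which C1qc lies between them, by the order of genes in RefSeq's GRCm38.p6 annotation. All are 60 bases long and given 5' to 3' as in the array files.
F13a1: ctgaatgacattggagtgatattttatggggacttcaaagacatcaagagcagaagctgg
C1qa: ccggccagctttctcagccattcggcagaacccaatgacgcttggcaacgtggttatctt
C1qb: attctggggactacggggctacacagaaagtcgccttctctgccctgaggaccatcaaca
In the mm9 coordinates of the files, the F13a1 probe lies at chr13:37063829-37063888 on the minus strand and starts at base 711 of its target transcript. The F13a1 probe that gave signal lies at chr13:36959214-36959273 on the same strand, 105 kb away, at base 3652 of the transcript. The C1qa probe lies at chr4:136452409-136452468 and the C1qb probe at chr4:136436578-136436637, both on the minus strand and 15.8 kb apart.

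F13a1 encodes the A subunit of coagulation factor XIII, a transglutaminase that cross-links fibrin and is made by tissue macrophages and megakaryocytes. Its processed signal was 225 in the male and 233 in the female Gata6cKO RNA, against 428 in the male and 302 in the female control RNA. Both Gata6cKO signals lay below both control signals, and the Gata6cKO signals were close to each other while the control signals were further apart. The log2 ratio was -0.87 on the male array and -0.35 on the female array. Their mean of -0.61 ± 0.13 (moderated SE, 95% interval -0.89 to -0.32) is a level 1.52-fold lower in Gata6cKO, with an adjusted p of 0.0155. Over all genes tested, 230 (1.16%) had a mean at least as low. The spots of the male array ran between -0.90 and -0.84 and those of the female array between -0.36 and -0.33, so the arrays differed by more than their spots did. Tested as a probe among the 26200 kept, of which 4.66% were called, it had an adjusted p of 0.00900. The call was lost with median centring in place of loess (adjusted p = 0.494), without the filter on dim probes (0.140), without the pairing of the RNAs on an array (0.279) and in the separate-channel fit (0.150), while the log2 ratio stayed between -0.66 and -0.61 over all settings that keep both arrays. The second F13a1 probe had signals between 2.14 and 2.23 in the 4 RNAs and 0 of 4 spots above background in each, and it was left out of the test.

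**Figure D1:**
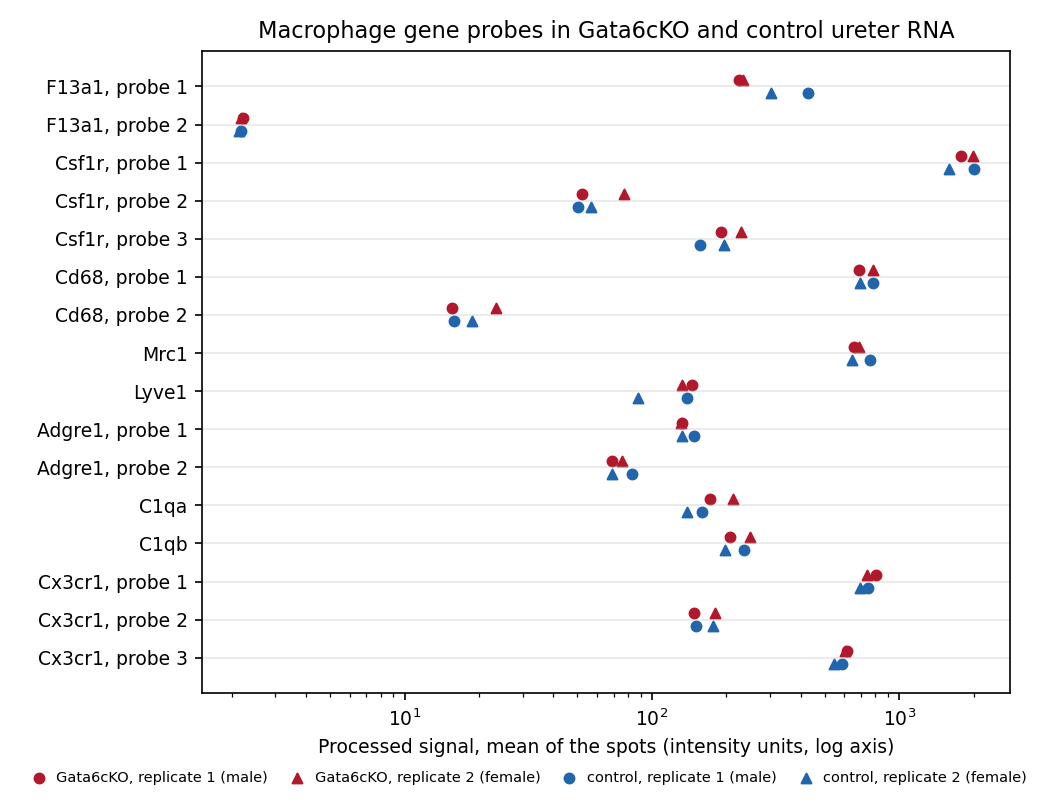
Processed signal of each of the 16 probes (horizontal log axis, intensity units, mean of the spots) in Gata6cKO RNA, above, and control RNA, below, with circles for the male and triangles for the female array. For the first F13a1 probe both Gata6cKO points, 225 and 233, lie left of both control points, 428 and 302; the second F13a1 probe stays near 2.2 in all RNAs. Positions along the axis are not comparable between probes.

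Csf1r encodes the receptor that macrophages need for survival. Its brightest probe read 1771 in the male and 1994 in the female Gata6cKO RNA, against 1998 in the male and 1589 in the female control RNA, and the groups overlapped. The male array gave a log2 ratio of -0.18 and the female array 0.32, with a mean of 0.07 ± 0.13 (95% interval -0.21 to 0.35, adjusted p = 1). The probe at base 2871 of the transcript gave 0.04 and 0.32, and the probe at base 1841 gave 0.25 and 0.20, so the 3 probes disagreed in sign on the male array. On the female array all 3 were above 0.

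Cx3cr1 encodes the fractalkine receptor of monocytes and many tissue macrophages. Its brightest probe read 802 and 738 in Gata6cKO RNA of the male and female arrays, against 743 and 696 in control RNA. The groups overlapped narrowly, and on each array the Gata6cKO signal was the higher one. The log2 ratios of 0.11 and 0.09 gave a mean of 0.10 ± 0.11 (95% interval -0.14 to 0.34, adjusted p = 1). It was the 1 gene of the 9 with a lower ratio on the female than on the male array, by 0.02. Another Cx3cr1 probe, which shares 55 bases with the brightest, gave 0.07 and 0.13, and a separate probe gave -0.02 and 0.03.

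The genes for the ligands of these receptors did not pass the test. The growth factor gene Csf1 read 409 and 452 in Gata6cKO RNA against 446 and 440 in control RNA, with a mean log2 ratio of -0.05 ± 0.11. Il34, for the other Csf1r ligand, read 19.7 and 22.6 in Gata6cKO RNA against 26.4 and 25.6 in control RNA, with a mean of -0.15 ± 0.11. Cx3cl1, for fractalkine, read 180 and 182 in Gata6cKO RNA against 186 and 203 in control RNA, with a mean of -0.10 ± 0.11. Both Il34 and Cx3cl1 signals were lower in Gata6cKO RNA than in control RNA on each array, by less than the test requires. Of 10 growth factor and chemokine genes above background, limma called 2 lower and 0 higher, with 2 at an unadjusted p under 0.05. Cxcl12, a chemokine for blood-forming and immune cells, read 18800 in each Gata6cKO RNA against 25260 and 25330 in control RNA, a log2 ratio of -0.43 ± 0.11 (adjusted p = 0.0429). Ccl2, which attracts monocytes, read 161 and 122 in Gata6cKO RNA against 212 and 178 in control RNA, a log2 ratio of -0.42 ± 0.11 (adjusted p = 0.0499). For both chemokines the groups did not overlap. Neither call held with median centring (adjusted p = 1 for each), and the Cxcl12 log2 ratio was -0.27 (adjusted p = 0.241) as the mean of its probes. The Cxcl12 call was also lost on Agilent's processed signals (adjusted p = 0.0685) and with a prior that follows intensity (0.0773). Without the filter on dim probes both calls were lost (adjusted p = 0.0821 for Cxcl12 and 0.0962 for Ccl2). Both were also lost without the pairing of the RNAs on an array (0.164 for Cxcl12 and 0.591 for Ccl2). The separate-channel fit gave 0.0636 for Cxcl12 and 0.343 for Ccl2. Cxcl1, a neutrophil chemokine gene whose probe was not well above background in control RNA, was not called (limma, adjusted p = 0.807). Its log2 ratio was 0.17 ± 0.11, with a 95% interval of -0.07 to 0.41 that includes 0. On Agilent's processed signals its log2 ratio was 0.50 (adjusted p = 0.0342).

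C1qa and C1qb encode chains of C1q, the recognition protein of the classical complement pathway, which tissue macrophages secrete and which also tags dying cells. C1qa read 171 and 213 in Gata6cKO RNA of the male and female arrays, against 160 and 139 in control RNA. Both Gata6cKO signals lay above both control signals. F13a1 and C1qa were thus the 2 genes of 9 whose groups did not overlap, in opposite directions, beside 32.9% of all genes tested. The C1qa log2 ratios of 0.09 and 0.54 gave a mean of 0.31 ± 0.13 (95% interval 0.04 to 0.59, unadjusted p = 0.0280), which did not pass adjustment over all genes (limma, adjusted p = 0.301). C1qb, from the other C1q probe printed above, read 208 and 249 in Gata6cKO RNA against 236 and 197 in control RNA. Its groups overlapped, and its log2 ratios of -0.17 and 0.30 gave a mean of 0.07 ± 0.13 (95% interval -0.21 to 0.35). C1qc, for the remaining chain, read 419 and 449 in Gata6cKO RNA against 488 and 420 in control RNA, a mean of -0.06 ± 0.12. The 3 C1q genes thus had means on both sides of 0 while each had a higher ratio on the female array. Of 15 complement genes above background, limma called 1 higher and 0 lower. An unadjusted p under 0.05 was reached by 4 of the 15, beside 11.4% of all genes tested. Of these 4, C1s1 was higher in Gata6cKO and the others were lower. C1s1, for a protease of the C1 complex, read 931 and 1012 in Gata6cKO RNA against 616 and 472 in control RNA, a log2 ratio of 0.82 ± 0.13 (adjusted p = 0.00182). The C1s1 call was lost with median centring (adjusted p = 0.112) and without the filter on dim probes (0.0553). It was also lost without the pairing of the RNAs on an array (0.105). Hc, for complement component C5, read 18.6 and 13.7 in Gata6cKO RNA against 29.7 and 20.8 in control RNA, and its log2 ratio of -0.31 ± 0.11 did not pass (adjusted p = 0.210). It was called lower on Agilent's processed signals (-0.64, adjusted p = 0.00467), without the offset in background correction (0.0155), in the deposited series values (0.00178) and with a prior that follows intensity (0.0262). C1s1 has a close paralog, C1s2, and cross-hybridisation of its probe was not tested.

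Mrc1, Cd68 and Lyve1 encode proteins of uptake: a mannose receptor, a lysosomal membrane glycoprotein and a hyaluronan receptor that lymphatic endothelium also carries. Mrc1 read 653 and 684 in Gata6cKO RNA of the male and female arrays, against 763 and 641 in control RNA, with log2 ratios of -0.22 and 0.10 and a mean of -0.06 ± 0.12 (95% interval -0.32 to 0.19). Cd68 read 686 and 782 in Gata6cKO RNA against 784 and 695 in control RNA, with log2 ratios of -0.18 and 0.17 and a mean of -0.01 ± 0.12 (95% interval -0.27 to 0.25). The groups overlapped for both genes, and the male and female ratios had opposite signs. A second, dimmer Cd68 probe gave -0.01 and 0.14. Lyve1 read 146 and 132 in Gata6cKO RNA against 138 and 88.1 in control RNA, where the female control stood apart below the other 3 RNAs. Its log2 ratios of 0.08 and 0.49 gave a mean of 0.28 ± 0.12 (95% interval 0.01 to 0.55, unadjusted p = 0.0406), which did not pass adjustment (adjusted p = 0.383). F13a1, Lyve1 and C1qa were the 3 genes of 9 with an unadjusted p under 0.05, beside 11.4% of all genes tested. Of 6 lymphatic endothelial genes above background, limma called 1 higher and 0 lower. Nrp2, for a semaphorin and VEGF coreceptor, had a log2 ratio of 0.62 ± 0.12 (adjusted p = 0.00652, and 0.746 with median centring). The Nrp2 call was also lost without the filter on dim probes (adjusted p = 0.0562) and without the pairing of the RNAs on an array (0.085). Prox1, the transcription factor that defines lymphatic endothelium, read 28.9 and 27.6 in Gata6cKO RNA against 20.6 and 29.7 in control RNA. The other 4, Pdpn, Flt4, Sox18 and Mmrn1, had means of -0.23, -0.06, -0.05 and -0.01 and were not called, the median of the 6 was -0.03, and 5 of 6 were below 0 on the female array. The part of lymphatic cells in the Lyve1 signal was not tested.

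Among 11 genes for the uptake of dying cells, limma called 1 lower and 0 higher. Gas6, the bridging ligand between dying cells and the TAM receptors Tyro3, Axl and Mertk, read 3702 and 3848 in Gata6cKO RNA against 6529 and 6528 in control RNA. Both Gata6cKO signals were below both control signals, and the log2 ratio was -0.79 ± 0.11 (adjusted p = 7.41e-04). The call was lost with median centring (adjusted p = 0.0626) and without the pairing of the RNAs on an array (0.0668). The receptor Mertk had log2 ratios of -0.02 and -0.22 and was not called.

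Adgre1 encodes the adhesion G protein-coupled receptor that marks mouse macrophages. Its brightest probe read 132 and 131 in Gata6cKO RNA of the male and female arrays, against 148 and 132 in control RNA. The male control was the highest of the 4 RNAs, and the other 3 were nearly equal. The log2 ratios of -0.14 and -0.02 gave a mean of -0.08 ± 0.11 (95% interval -0.32 to 0.16, adjusted p = 1), and the other probe gave -0.21 and 0.10.

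**Figure D2:**
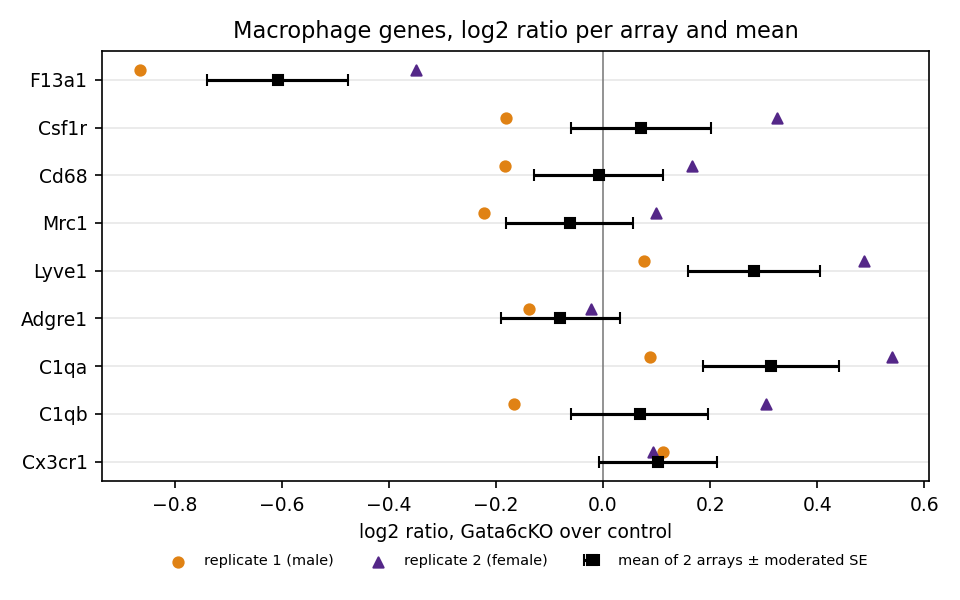
Log2 ratio of Gata6cKO over control (horizontal axis) for the brightest probe of each of the 9 genes, with a circle for the male array, a triangle for the female array and a square with bars for the mean ± moderated SE. F13a1, with a mean of -0.61, lies left of 0 on both arrays; Csf1r, Cd68, Mrc1 and C1qb have circles left and triangles right of 0.

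Read array by array, the 9 genes sat mostly below 0 on the male array and mostly above 0 on the female array. On the male array 6 of 9 were below 0 and the median was -0.17; on the female array 2 of 9 were below 0 and the median was 0.17. The ratio was higher on the female array for 8 of 9 genes, beside 52.6% of all genes tested, and the median difference, female minus male, was 0.41, against 0.02 over all genes. At the level of probes it was higher on the female array for 13 of the 15 kept. The ratio was also higher on the female array for 14 of 15 complement and 5 of 6 neutrophil genes. For lymphatic endothelial genes it was higher for 1 of 6, and for platelet and megakaryocyte genes for 2 of 6. Opposite signs on the arrays occurred for 4 of 9 genes, beside 51.2% of all genes tested. With 1 array per sex and dye orientation, the difference between the arrays was not tested.

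Of 35 other macrophage genes, 28 were above background, and limma called 0. An unadjusted p under 0.05 was reached by 4 of the 28, beside 11.4% of all genes tested. Among these 4 were Cd14 with a mean log2 ratio of -0.34, Laptm5 with -0.34 and Msr1 with -0.24. The remaining gene was above 0. Of the 28 mean ratios, 16 were below 0. The Msr1 probe was not well above background in Gata6cKO RNA, and its 95% interval ran from -0.48 to -0.0018 (limma, adjusted p = 0.433). On Agilent's processed signals Msr1 had a log2 ratio of -0.60 and an adjusted p of 0.0103, and it was also called without the offset in background correction (0.0432) and in the deposited series values (0.00245). Over the 28 genes the median was -0.19 in replicate 1 and 0.09 in replicate 2, and 21 of 28 had the higher ratio on the female array. The leukocyte gene Ptprc, which encodes CD45, read 21.7 and 22.5 in Gata6cKO RNA against 27.3 and 23.6 in control RNA, a mean log2 ratio of -0.08 ± 0.11. The 7 genes not above background were Spi1, Cybb, Cd163, Timd4, Siglec1, Vsig4 and C5ar1, so the transcription factor gene Spi1, which encodes PU.1, could not be compared.

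**Figure D3:**
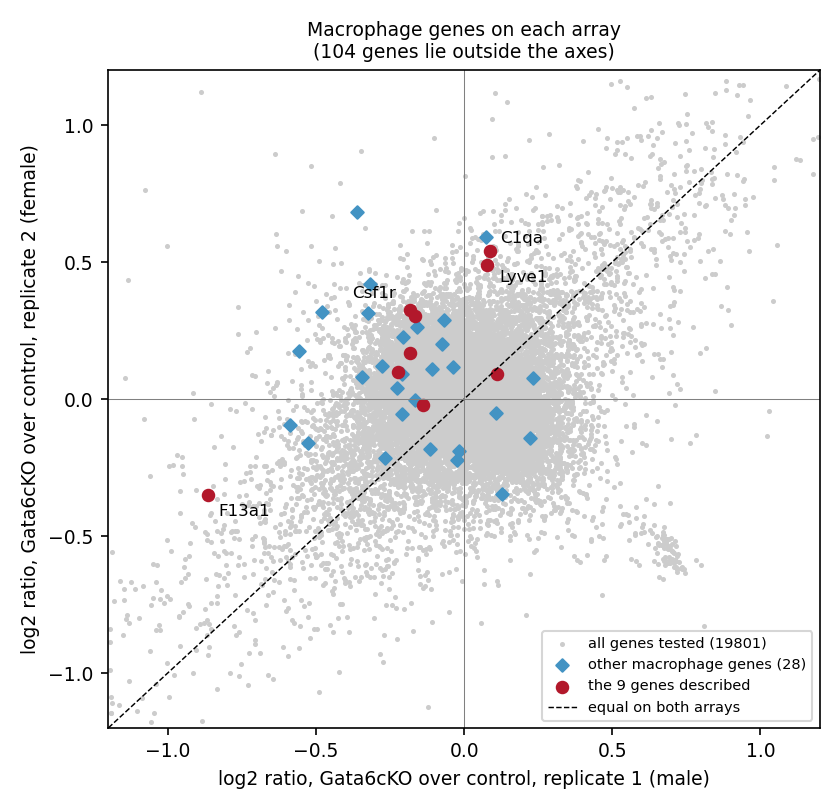
Log2 ratio of Gata6cKO over control on the male array (horizontal axis) against that on the female array (vertical axis) for all 19801 genes tested (grey), 28 other macrophage genes (diamonds) and the 9 genes described (red circles); 104 genes lie outside the axes. Of the 9 circles, 8 lie above the dashed line of equal ratios, and F13a1 lies at -0.87 and -0.35.

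Genes of other blood and vessel cells, which the dissected tissue also holds, moved as follows; their summed signals are dominated by the brightest probes of each list. Red blood cell genes were called lower in Gata6cKO RNA for 5 of 15 and called higher for 0. All 15 means were below 0, with a median of -0.40. Of the 15, 13 had an unadjusted p under 0.05 (limma), beside 11.4% of all genes tested. Their summed signal was 166600 and 149000 in Gata6cKO RNA against 221200 and 208300 in control RNA. Of 6 neutrophil genes above background 2 fell, 0 rose and 4 were not called, with means up to 0.11. The median of the 6 was -0.68 on the male array and -0.02 on the female array, where 3 of 6 were below 0. S100a9 read 50.8 and 87.0 in Gata6cKO RNA against 245 and 152 in control RNA, and S100a8 read 20.7 and 33.1 in Gata6cKO RNA against 86.6 and 50.5 in control RNA. The groups did not overlap, and the difference was larger on the male array, where the log2 ratio was -1.91 for S100a9 and -1.39 for S100a8, than on the female array, where it was -0.67 for S100a9 and -0.41 for S100a8. Over both arrays S100a9 had a log2 ratio of -1.29 ± 0.20 (adjusted p = 0.00180) and S100a8 one of -0.90 ± 0.18 (adjusted p = 0.00772); both genes are for calcium-binding proteins of myeloid cells. Without the filter on dim probes both calls were lost (adjusted p = 0.125 for S100a9 and 0.188 for S100a8). Both were also lost without the pairing of the RNAs on an array (0.0553 for S100a9 and 0.0674 for S100a8). The S100a8 call was lost in the separate-channel fit as well (0.0623). The summed neutrophil signal was 389 and 493 in Gata6cKO RNA against 722 and 550 in control RNA, and Ngp and Ltf were not above background. For platelets and megakaryocytes, another known source of F13a1 transcripts, limma called 0 of 6 genes, with 2 at an unadjusted p under 0.05. All 6 means were below 0. The platelet gene Gp9, with a log2 ratio of -0.38 ± 0.11 (adjusted p = 0.0904), was called on Agilent's processed signals (adjusted p = 0.0224), without the offset (0.0147), in the deposited series values (0.00437) and with a prior that follows intensity (0.0179). Their summed signal was 1356 and 1332 in Gata6cKO RNA against 1657 and 1681 in control RNA, while Itga2b, Gp1ba, Gp5 and Gp6 were not above background. The part of platelets, neutrophils, other cells and blood content in the lower F13a1 signal was not tested.

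Blood endothelial genes had 1 of 13 called lower and 0 called higher, with a median of -0.05 and means between -0.55 and 0.19. The 1 called was Tek, the angiopoietin receptor gene, with a log2 ratio of -0.55 ± 0.11 (limma, adjusted p = 0.0122). Its call was lost with median centring (adjusted p = 0.684), without the filter on dim probes (0.0628), with no replicate block (0.177) and with separate channels (0.0573). Of 4 lymphocyte genes above background, the B cell receptor gene Cd79b fell, with -0.44 ± 0.12 (adjusted p = 0.0468, and 1 with median centring). Its call was also lost without the filter (adjusted p = 0.131), with no replicate block (0.164) and with separate channels (0.0886). The other 3 were not called, the median of the 4 was -0.11, and the highest mean was 0.10. A further 8 lymphocyte genes, among them Rag1, were not above background. Limma called 0 of 5 monocyte and dendritic cell genes and 0 of 3 mast cell genes, each with 1 at an unadjusted p under 0.05. The monocyte chemokine receptor gene Ccr2 read 12.8 and 16.4 in Gata6cKO RNA against 37.9 and 16.8 in control RNA, so that the male control stood apart; its log2 ratio of -0.41 ± 0.15 had an adjusted p of 0.220. It was called with a prior that follows intensity (adjusted p = 0.0258), without the offset in background correction (-0.63, adjusted p = 0.00886) and in the deposited series values (-0.73, adjusted p = 9.13e-04), and was -0.81 on Agilent's processed signals (adjusted p = 0.0570).

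**Figure D4:**
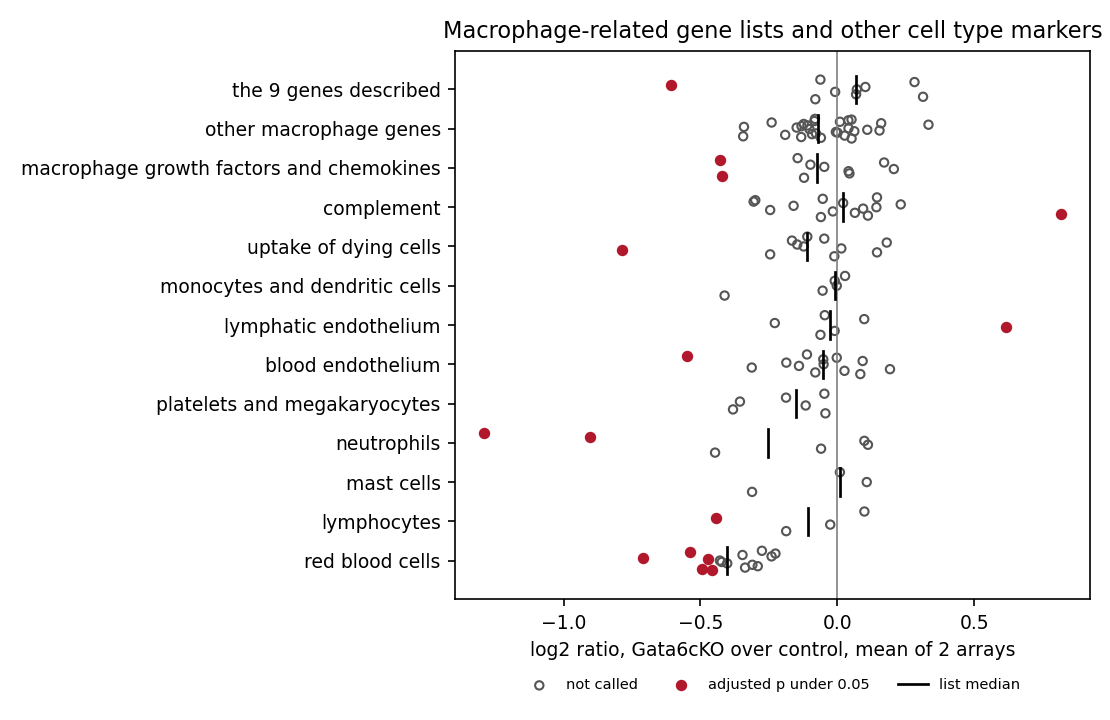
Mean log2 ratio of Gata6cKO over control (horizontal axis) for each gene above background in the 9 macrophage genes and 12 other lists (vertical axis), with filled points for an adjusted p under 0.05 and a line at each list's median. F13a1 is the filled point of the top list, at -0.61, and the red blood cell list has its median at -0.40.

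The genes whose pair of ratios lay nearest to the medians of the 9 genes, by Euclidean distance over the 2 arrays, were 0610040B10Rik, ENSMUST00000161974, Rsl1, Gm6252 and Lancl2, at distances up to 0.00442. Within a distance of 0.1 lay 1473 of the 19801 genes, so many individual genes had ratios near this pair of values. The pair is a median over 9 genes while the count is of individual genes. The count therefore cannot show whether such a median is common or unusual on these arrays.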

How the data were processed

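Two-colour Agilent arrays were hybridised with labelled RNA made from 150 ng of total RNA each, per the labels' protocols. The authors deposited scanner output of Agilent Feature Extraction 10.7.3.1, per the submitters' processing notes and the file headers, with spot intensity values for both dyes, background and flags, and mm9 probe positions. The processed signals in these deposited files are intensity values that are background-subtracted and dye-normalised, per the file headers, and the deposited LogRatio column is log10 of Cy5 over Cy3. A deposited series table gives 1 score per probe and array, whose scale, centring and direction the labels do not state. No score lies between -1 and 1 and each column's median is 1, as for a signed linear fold; taken as one, and as log2, it correlated at r = 0.955 with the ratios computed here on each array, in the direction Gata6cKO over control, and its centring stays unknown. Both arrays lie on 1 slide, per the file headers.

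Mean spot signals were corrected with normexp (offset 50) and normalised by loess within arrays in limma 3.58.1 under R 4.3.3, leaving out control and outlier spots. Spots of a probe were averaged. A probe was kept if at least 3 of 4 spots were well above background on both arrays in Gata6cKO or in control RNA, and the brightest kept probe stood for its gene. This kept 26200 probes. Accessions matched RefSeq for 28328 probes, and 1602 symbols were updated. Ratios were tested with lmFit and eBayes (log2 scale, dye orientation turned, Benjamini-Hochberg over 19801 genes, 0.05). Each array pairs 1 Gata6cKO with 1 control RNA of the same sex, which is where the pairing comes from.

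The fit has 1 residual degree of freedom per gene and borrows a prior of 11.9 degrees of freedom from all genes. Tested on simulated data, the fit recovered the changes put in, but it often overestimated this prior, and its false calls then ran above the nominal share, so adjusted p values here can be too small. C1qc and Mertk each stand in 2 lists. Members and gene lists were chosen with earlier results of these data known. Genes named are the 9 members, the ligands Csf1, Il34 and Cx3cl1, C1qc, Spi1 and Ptprc, among up to 4 genes of smallest p in every other list, and the 5 nearest by distance; Gata6, Mertk, Sox18, Mmrn1 and genes named as not above background were added after their values were seen. Some items are not reported here. Alternatives in background correction, normalisation, filtering, probe choice and model were tried.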

Additional observations from a re-analysis of the deposited data

Results flagged for a closer look

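Listed here are 15 genes, chosen by rule, whose ratio of Gata6cKO over control had opposite signs on the male and the female array. Sox18, Mmrn1 and the genes nearest to the members by distance also had opposite signs and are outside this count. The difference between the sexes was not tested, since each has 1 array and 1 dye orientation. Differences are female minus male, on the log2 scale.

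Of the 9 macrophage genes, the difference was 0.505 for Csf1r, 0.349 for Cd68, 0.32 for Mrc1 and 0.471 for C1qb. All 4 were below 0 on the male array and above 0 on the female array. Among related genes it was 0.159 for Csf1, 0.301 for C1qc and 0.375 for Rac2, a GTPase gene of blood cells. Among markers of other cells it was 0.936 for the neutrophil peptide gene Camp, 0.394 for Hdc, which makes histamine in mast cells, and 0.0655 for Flt3. It ran the other way for Prox1 at -0.342, Cd79a at -0.328, Zbtb46 at -0.273, Tpsb2 at -0.266 and Flt4 at -0.211. Outside the 15, it was -0.406 for Sox18 and -0.0704 for Mmrn1. Over all genes tested, 51.2% had opposite signs.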

How the results depend on the processing

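Under alternatives that keep both arrays, the F13a1 log2 ratio lay between -0.66 and -0.61, and with 1 array it lay between -0.87 and -0.35 with no test. Its adjusted p was 0.494 with median centring (log2 ratio -0.62), 0.140 without the filter on dim probes (-0.61), 0.279 with no replicate block (-0.61) and 0.150 with separate channels (-0.61), and between 5.74e-04 and 0.0202 in the other alternatives with both arrays. Under those 4 settings 0 of 9 genes were called, and 0 of the members' probes with median centring and without the filter. The median of the 9 genes lay between 0.03 and 0.07 with both arrays, and between -0.17 and 0.17 with 1. Over all genes, lower and higher calls numbered 100 and 90 with median centring, 229 and 248 without the filter, 795 and 672 in the deposited series values, 279 and 284 with separate channels, and 0 and 0 with no replicate block. The filter changes how many genes are tested, and the cause of the other shifts was not tested. The separate-channel fit could not be fitted with a dye term and was run with genotype alone, a choice made after seeing the data, and its correlation estimate did not converge for some genes. Of 18 called genes among those chosen by rule, 12 lost the call with median centring, 13 without the filter, 8 with separate channels and 18 with no replicate block. These 18 include red blood cell and ureter genes that are not named above, and they leave out Gata6. In the ureter list, 6 genes were called with median centring and 7 without the filter. Called red blood cell genes numbered between 0 and 10. Of genes that were not called, Cd68 turned to 0.0292 with the mean of its probes, Flt3 to 0.0150 with processed signals and 0.0198 with median centring, and Tpsb2 to -0.0149 with median centring. With 2 arrays, differences as small as those of most of the 9 genes were not detectable.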
